A study of Mus musculus with 3 samples.

Results

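The genes described here encode α, γ and δ subunits of the GABA-A receptor: *Gabra2*, *Gabra3*, *Gabra4*, *Gabra5*, *Gabrg1*, *Gabrg3* and *Gabrd*. They were taken by their symbols, 7 of the 32285 genes counted in the basolateral amygdala (BLA) of adult mice. The BLA was dissected from both hemispheres of male C57BL/6NRj mice at postnatal day 56, with 4 littermate brains per dataset, and its nuclei were profiled by single-nuclei RNA sequencing (snRNAseq) with 10x 3′ chemistry. There was no treatment, transgene or second condition, so the comparisons are between kinds of nuclei. Of 3 libraries, libraries 2 and 3 held 8380 of 9199 barcodes and carry the comparisons. Library 1 held 819 barcodes, of which 42 were glutamatergic and at most 6 belonged to any other class compared here. Whether each library came from its own brains is not stated, so p-values measure the spread between libraries, which may be technical.

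GABA-A receptors are chloride channels built from several subunits around a pore, and they carry most of the fast inhibition in the amygdala. The α subunit shapes how strongly GABA acts and which benzodiazepines bind, a γ subunit helps to hold the receptor at the synapse and completes the benzodiazepine site, and δ takes the place of γ in receptors outside synapses that respond to ambient GABA and neurosteroids. Inhibition of the BLA is central to fear and anxiety, and benzodiazepines act on it.

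Each nucleus was put into a class by its raw count of unique molecular identifiers (UMIs, 1 per captured RNA molecule). Glutamatergic nuclei had at least 2 UMIs of the vesicular glutamate transporters *Slc17a7* and *Slc17a6* together and 0 of *Gad1* and *Gad2*, which make GABA. GABAergic nuclei had the reverse, and were split into Foxp2-high (at least 3 UMIs of *Foxp2*, a transcription factor of intercalated and striatal neurons) and Foxp2-low. Both had less than 0.1% of their UMIs on the glial glutamate transporters *Slc1a2* and *Slc1a3*, and astrocytes had at least 0.6%. Libraries 2 and 3 gave 484 and 208 glutamatergic, 153 and 351 Foxp2-high, 235 and 326 Foxp2-low and 532 and 1191 astrocyte nuclei. The median depth was 15525.5 and 13115 UMIs in glutamatergic nuclei, 7046 to 7995 in the GABAergic classes, and 2744.5 and 3024 in astrocytes. Levels are therefore given as CPM, a gene's count per 1000000 UMIs summed over a class in a library, and shares of nuclei are also given after each nucleus was thinned at random to 1000 UMIs.

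The classes were checked by lists of markers, most of which the rule did not use. Although the labels give neuronal cell types only, glia were plentiful. A list of 9 astrocyte markers summed to 16800 and 20000 CPM in astrocytes, against 241 to 458 CPM in glutamatergic nuclei. In Foxp2-high nuclei this list summed to 1320 CPM in library 2 and 497 in library 3. *Gpc5* gave 1000 of the 1320 CPM, from 28 of 153 nuclei, while *Gja1* and *Fgfr3* were at 0 in library 2. A list of 12 striatal and intercalated markers summed to 4560 and 5110 CPM in Foxp2-high nuclei and 2400 and 2250 CPM in Foxp2-low nuclei. Of this, *Meis2* gave 2470 to 2720 CPM in Foxp2-high and 238 to 298 CPM in Foxp2-low nuclei. *Drd2* went the other way, at 2.91 to 3.47 CPM and 13.6 to 23.1 CPM in the same order. A list of 10 interneuron markers summed to 410 and 554 CPM in Foxp2-high and to 3510 and 3800 CPM in Foxp2-low nuclei. It also summed to 2840 and 3510 CPM in oligodendrocyte precursors, so a high sum is not particular to interneurons. A list of 8 glutamatergic markers summed to 3600 and 3220 CPM in glutamatergic and to 1570 and 1510 CPM in Foxp2-high nuclei. There *Arpp21* gave 950 to 991 CPM, *Camk2a* gave 565 and 425 CPM, and *Neurod6* and *Tbr1* had at most 2 UMIs. Oligodendrocytes, 114 and 166 nuclei with median depths of 2298 and 2134 UMIs, were used as the reference for the background of a gene. Free RNA was not measured, and microglia would set another reference for some genes. Oligodendrocytes, unlike astrocytes, were required to have 0 UMIs of the transmitter genes. Libraries 2 and 3 shared 7 barcodes.

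The 7 genes lie on the minus strand of GRCm38 (mm10), and 5 of them are neighbours of each other on chromosomes 5 and 7. On chromosome 5 they are *Gabrg1* (70751047 to 70842617), *Gabra2* (70957597 to 71095849) and *Gabra4* (71569749 to 71658308), next to *Gabrb1* on the other strand. On chromosome 7 they are *Gabrg3* (56716465 to 57387188) and *Gabra5* (57407672 to 57510059), the latter overlapped by annotation on the other strand. *Gabra3* lies on chromosome X (72432681 to 72656848) and *Gabrd* on chromosome 4 (155384980 to 155398112). The strand setting of the counting is not given in the sources used here, so reads of *Gabra4* and *Gabra5* that fall in such overlaps cannot be assigned with certainty.

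Neighbouring genes had unlike levels, so the windows before their start sites are shown for the gene highest in astrocytes (*Gabrg1*), the one with the steepest difference between neurons and astrocytes (*Gabra5*) and the one highest in Foxp2-high nuclei (*Gabrg3*). Each runs 5′ to 3′ over the 250 bases before the RefSeq start on GRCm38.p6, on the minus strand, with CG dinucleotides in capitals. The RefSeq start of *Gabrg3* lies upstream of the start in the GENCODE annotation, so its window may not border the start used in these nuclei. The windows are *Gabrg1* at chr5:70842618-70842867, *Gabra5* at chr7:57510060-57510309 and *Gabrg3* at chr7:57387216-57387465:
Gabrg1: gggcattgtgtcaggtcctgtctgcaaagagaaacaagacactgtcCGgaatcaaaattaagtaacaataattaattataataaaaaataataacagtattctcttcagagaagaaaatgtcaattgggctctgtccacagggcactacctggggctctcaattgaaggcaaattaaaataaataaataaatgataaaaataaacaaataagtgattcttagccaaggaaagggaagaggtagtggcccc
Gabra5: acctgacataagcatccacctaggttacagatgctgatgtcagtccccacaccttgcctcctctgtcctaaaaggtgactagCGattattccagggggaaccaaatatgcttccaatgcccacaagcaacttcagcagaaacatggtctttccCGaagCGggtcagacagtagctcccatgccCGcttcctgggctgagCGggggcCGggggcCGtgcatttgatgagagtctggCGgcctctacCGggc
Gabrg3: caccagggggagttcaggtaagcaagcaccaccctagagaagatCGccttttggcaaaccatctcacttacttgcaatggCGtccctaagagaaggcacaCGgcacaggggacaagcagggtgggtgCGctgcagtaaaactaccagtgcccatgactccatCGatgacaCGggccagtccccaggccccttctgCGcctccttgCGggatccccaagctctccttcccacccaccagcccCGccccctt

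CG reads the same on both strands, and at least 1 is found in 92.1% of 32841 mouse windows of this kind, whose median is 6. *Gabrg1* had 1 CG and 35.6% G and C, and 18.8% of all windows had as few CGs. *Gabra5* and *Gabrg3* had 9 each, *Gabra4* had 12 and *Gabra2* had 18. *Gabra3* had 0 before either of its listed starts. The counts of CG are a description of these windows and say nothing of how they are used.

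*Gabra2*, whose subunit is known for inhibition at the axon initial segment and for the anxiolytic action of benzodiazepines, was highest in glutamatergic nuclei, at 704 CPM in library 2 and 761 in library 3. It reached 382 and 444 CPM in Foxp2-high, 308 and 381 in Foxp2-low and 375 and 420 in astrocytes. The glutamatergic values lay above those of the other 3 classes in both libraries, while the ranges of the other 3 overlapped between neighbours. A typical glutamatergic nucleus held a median of 9 UMIs of *Gabra2* in either library. Thinned to equal depth, the gene was found in 48.3% of glutamatergic nuclei of library 2 (exact 95% interval 43.8 to 52.9) and 46.1% of library 3, in 27.6% and 31.2% of astrocytes, and in 8.25% and 7.05% of oligodendrocytes. Astrocytes were thus above oligodendrocytes in both libraries, though astrocytes, unlike oligodendrocytes, were not screened for transmitter UMIs. Microglia, with 74 and 29 nuclei, were at 258 and 208 CPM and had *Gabra2* in 6.06% and 18.5% of nuclei after thinning.

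**Figure D1:**
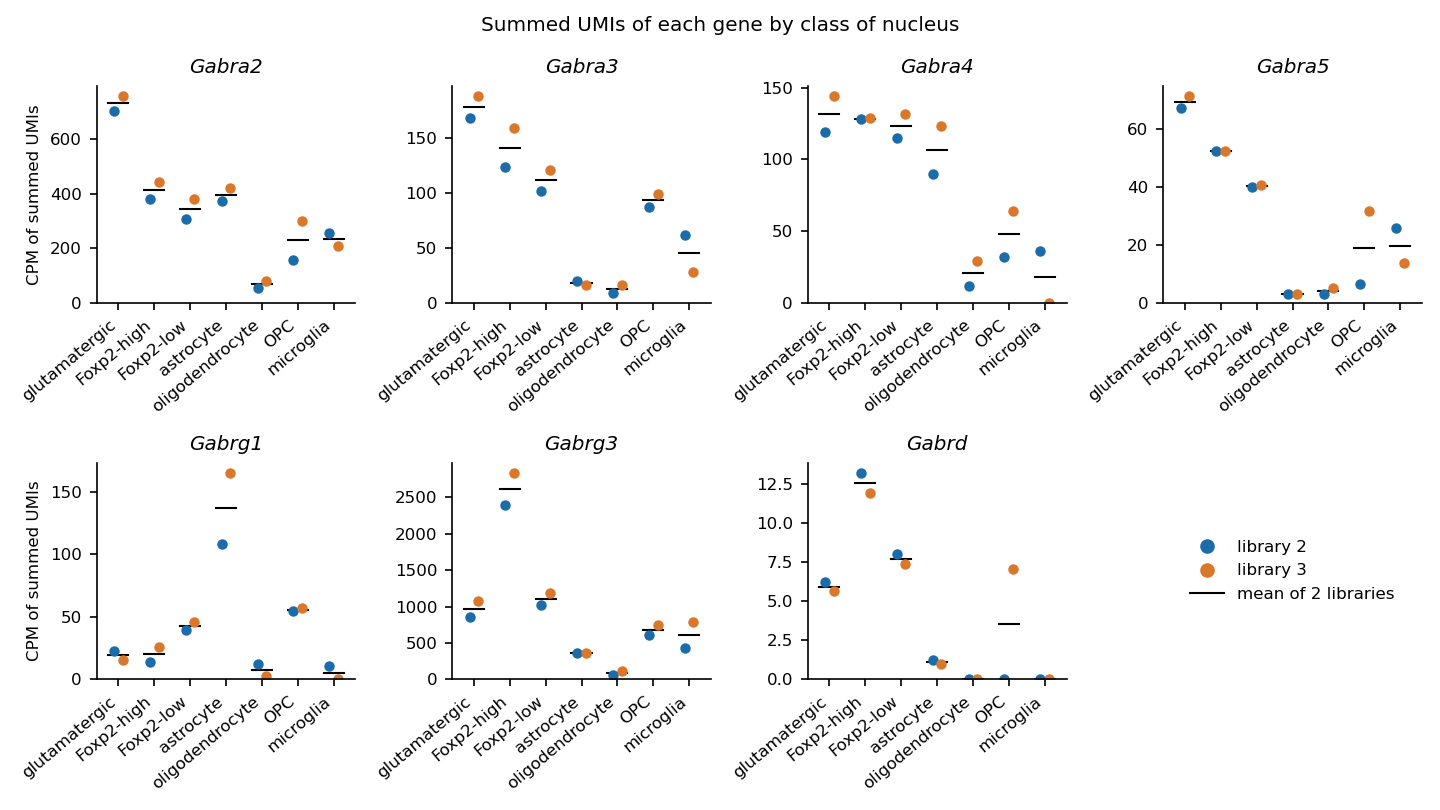
Level of each gene by class of nucleus, in CPM of the UMIs summed over the class (vertical axis, from 0), with 1 point per library and a line at the mean of libraries 2 and 3. *Gabra2*, *Gabra3* and *Gabra5* are highest in glutamatergic nuclei, *Gabrg3* in Foxp2-high nuclei at 2390 and 2840 CPM, and *Gabrg1* in astrocytes at 108 and 165 CPM. OPC, oligodendrocyte precursor.

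*Gabra3* and *Gabra5* shared an order of classes. *Gabra3* was at 168 and 188 CPM in glutamatergic, 123 and 159 in Foxp2-high and 102 and 121 in Foxp2-low nuclei, and at 19.4 and 15.7 CPM in astrocytes. *Gabra5*, whose subunit sits largely outside synapses and is best known from the hippocampus, was at 67.4 and 71.6 CPM, 52.7 and 52.6 CPM, 39.9 and 40.6 CPM, and 3.13 and 2.94 CPM in the same order. For both genes the values of neighbouring classes did not overlap. How many of all genes do so was not counted, and edgeR without a block called neither gene between Foxp2-high and another neuronal class. *Gabra5* had a UMI in 0.94% and 1.01% of astrocytes and in 0.877% and 1.2% of oligodendrocytes, so its astrocyte value is at the oligodendrocyte level. *Gabra3* in astrocytes, in 5.26% and 4.79% of nuclei, was close to oligodendrocytes, with 2.63% and 3.01%. After thinning the order of the neuronal classes was less clear, since *Gabra3* was found in 6.54% of Foxp2-high nuclei of library 2 and 15.7% of library 3, and in 13.7% and 10.7% of glutamatergic nuclei. *Gabra5* was then found in 1.31% and 5.7% of Foxp2-high and 4.31% and 5.21% of Foxp2-low nuclei, the reverse order in library 2.

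*Gabra4*, which encodes a benzodiazepine-insensitive α subunit that often joins with δ, was nearly level. It was at 119 and 144 CPM in glutamatergic, 128 and 129 in Foxp2-high, 115 and 132 in Foxp2-low and 90.1 and 123 in astrocyte nuclei. Every neighbouring pair of classes overlapped. In oligodendrocytes it was at 11.9 and 29 CPM. After thinning it was found in 9.27% and 10.3% of astrocytes, 10.2% and 12.1% of glutamatergic nuclei, and 1.03% and 2.56% of oligodendrocytes, so that astrocytes lay by the neurons and above oligodendrocytes.

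*Gabrg3* had its highest level in Foxp2-high nuclei. It was at 2390 and 2840 CPM there, at 1020 and 1180 CPM in Foxp2-low, at 856 and 1070 CPM in glutamatergic and at 360 and 361 CPM in astrocyte nuclei. The Foxp2-high values lay above all others, while Foxp2-low and glutamatergic nuclei overlapped. All 153 Foxp2-high nuclei of library 2 and all 351 of library 3 held a UMI of *Gabrg3*, with a median of 19 per nucleus in both. Foxp2-low nuclei held a median of 5 and had a UMI in 76.2% and 80.1%. At equal depth the shares were 87.6% and 93.2% in Foxp2-high, 48.7% and 50.6% in Foxp2-low, 24.9% and 25.3% in astrocyte and 6.19% and 11.5% in oligodendrocyte nuclei. Microglia were at 428 and 789 CPM of *Gabrg3*, above astrocytes, and had it in 12.1% and 14.8% of nuclei after thinning, below them.

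**Figure D2:**
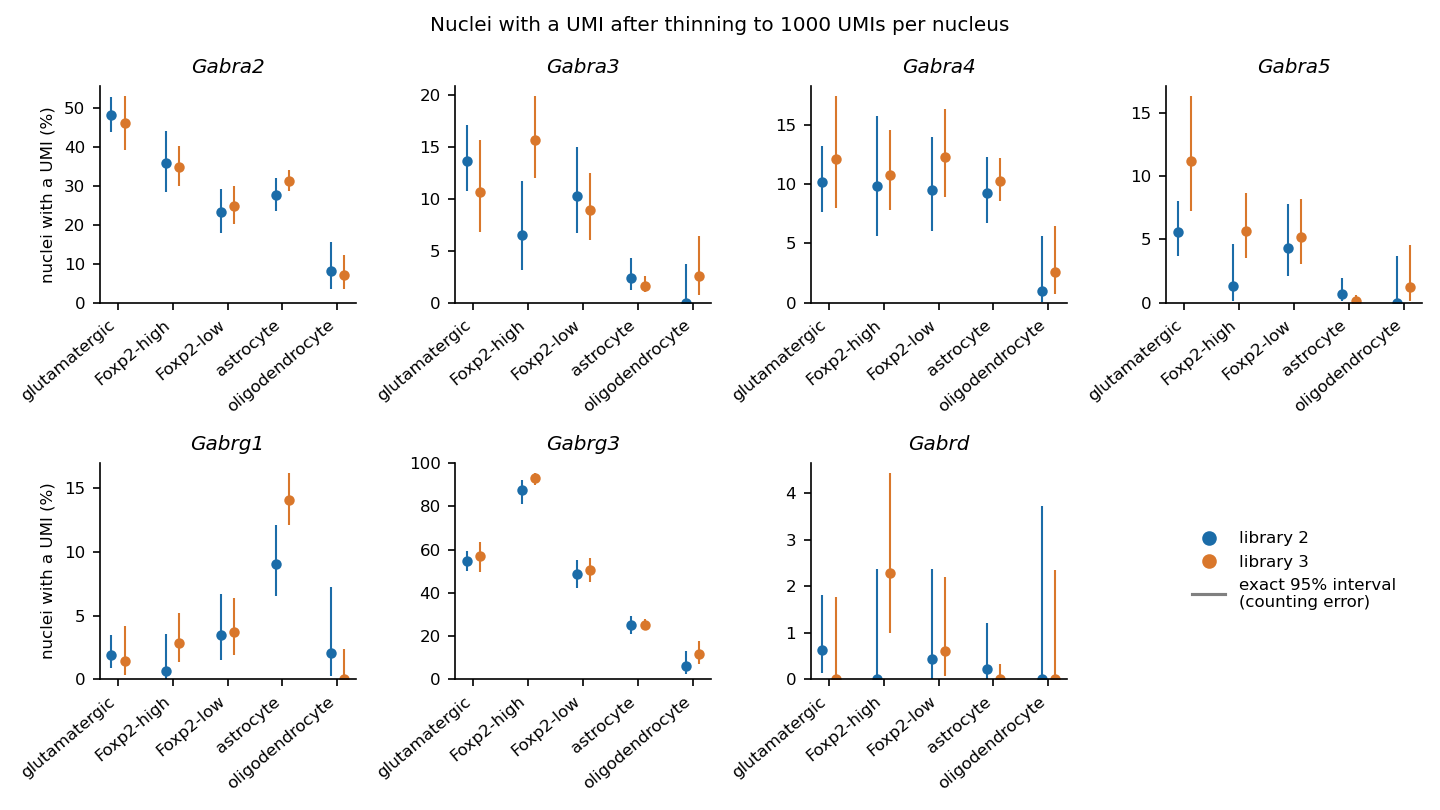
Share of nuclei with at least 1 UMI of each gene after thinning every nucleus to 1000 UMIs (vertical axis in percent, from 0), by class and library, with exact 95% intervals for counting error. *Gabrg3* stands at 87.6% and 93.2% in Foxp2-high nuclei, and astrocytes stand above oligodendrocytes for *Gabra2*, *Gabra4*, *Gabrg1* and *Gabrg3*. Only the latter class was screened for transmitter UMIs.

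*Gabrg1* was highest in astrocytes, at 108 and 165 CPM, followed by Foxp2-low nuclei at 39 and 45.5 CPM, Foxp2-high nuclei at 13.9 and 26.1 CPM and glutamatergic nuclei at 22.7 and 15.8 CPM. The last 2 classes overlapped. Oligodendrocyte precursors, at 54.8 and 56.6 CPM, lay between astrocytes and Foxp2-low nuclei, and oligodendrocytes were at 11.9 and 2.63 CPM. After thinning, 9.05% and 14.1% of astrocytes had a UMI, against 1.87% and 1.46% of glutamatergic nuclei.

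*Gabrd* was sparse everywhere, with 19 and 37 UMIs in all Foxp2-high nuclei, 17 and 21 in Foxp2-low, 52 and 18 in glutamatergic and 2 and 4 in astrocyte nuclei. These correspond to 13.2 and 11.9 CPM, 7.99 and 7.35 CPM, 6.19 and 5.67 CPM, and 1.25 and 0.98 CPM. Neighbouring classes did not overlap, on few UMIs, and how many of all genes do so was not counted. By edgeR, glutamatergic and Foxp2-low nuclei were not called apart (adjusted p = 0.672). At most 9.3% of the nuclei of any of these classes had a UMI. Oligodendrocytes had 0 UMIs, which allows up to 8.96 and 7.9 CPM, so the astrocyte value cannot be told from theirs.

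To compare the genes with each other, levels were divided by the length of the gene span, introns included. In glutamatergic nuclei the mean level was 5.3 CPM per kb for *Gabra2*, 1.48 for *Gabra4*, 1.44 for *Gabrg3*, 0.793 for *Gabra3*, 0.679 for *Gabra5*, 0.452 for *Gabrd* and 0.21 for *Gabrg1*. On this scale *Gabrg3* led in Foxp2-high nuclei at 3.9 CPM per kb, ahead of *Gabra2* at 2.99, and *Gabra2* led in astrocytes at 2.88, followed by *Gabrg1* at 1.49. Whether introns were counted is not given in the sources used here, and per kb of exon the order below *Gabra2* differed. In glutamatergic nuclei it was then 95.9 CPM per kb of exon for *Gabra2*, 80.8 for *Gabrg3*, 45.3 for *Gabra3*, 23.4 for *Gabra5*, 21.6 for *Gabra4*, 2.45 for *Gabrg1* and 2.06 for *Gabrd*. On both scales *Gabra2* led in glutamatergic nuclei and in astrocytes and *Gabrg3* in Foxp2-high nuclei. Without the division *Gabrg3* led *Gabra2* in glutamatergic nuclei, at a mean of 964 against 732 CPM. The order of the genes thus depends on the division, and 3′ counts need not scale with length. A glutamatergic nucleus held UMIs of a median of 4 of the 7 genes in both libraries and an astrocyte of 1 and 2, at their unequal depths.

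The classes were tested on the summed counts with edgeR's quasi-likelihood test over all genes, with adjusted p-values, and each class had 2 libraries. Against Foxp2-low nuclei, the glutamatergic class was higher in 3 α genes and lower in *Gabrg1*. These were *Gabra2* (log2 fold change 1.17, SE 0.26, adjusted p = 0.00346), *Gabra5* (0.86, SE 0.19, adjusted p = 0.00363), *Gabra3* (0.75, SE 0.23, adjusted p = 0.0304) and *Gabrg1* (-1.04, SE 0.30, adjusted p = 0.0225). *Gabra4*, *Gabrg3* and *Gabrd* had log2 fold changes of 0.17, -0.10 and -0.29 and were not called. The 4 calls among 7 stand beside 17.0% of all 13052 genes called in this comparison, and the median log2 fold change was 0.17 for the 7 genes and 0.02 for all. With DESeq2 the adjusted p of *Gabra3* was 0.0715. After thinning only *Gabra2* was called, and with stricter classes the log2 fold change of *Gabra5* was 0.41 and it lost its call, as did *Gabrg1*.

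Against Foxp2-high nuclei, glutamatergic nuclei had more *Gabra2* and less *Gabrg3* and *Gabrd*. The log2 fold changes were 0.88 for *Gabra2* (SE 0.25, adjusted p = 0.0276), -1.37 for *Gabrg3* (SE 0.29, adjusted p = 0.00304) and -1.03 for *Gabrd* (SE 0.33, adjusted p = 0.0468), while 13.1% of all genes were called. With the library as a block, *Gabra3* (0.40, adjusted p = 0.038) and *Gabra5* (0.47, adjusted p = 0.0221) were called as well. The block called 2538 of 13052 genes there. The call of *Gabrd* rested on few UMIs, and its adjusted p was 0.301 with DESeq2 and 0.0776 without the low-count filter. After thinning *Gabrg3* was called (-1.55, adjusted p = 5.52e-06), *Gabra2* was not (0.62, adjusted p = 0.0814) and *Gabrd* had too few UMIs to be tested.

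**Figure D3:**
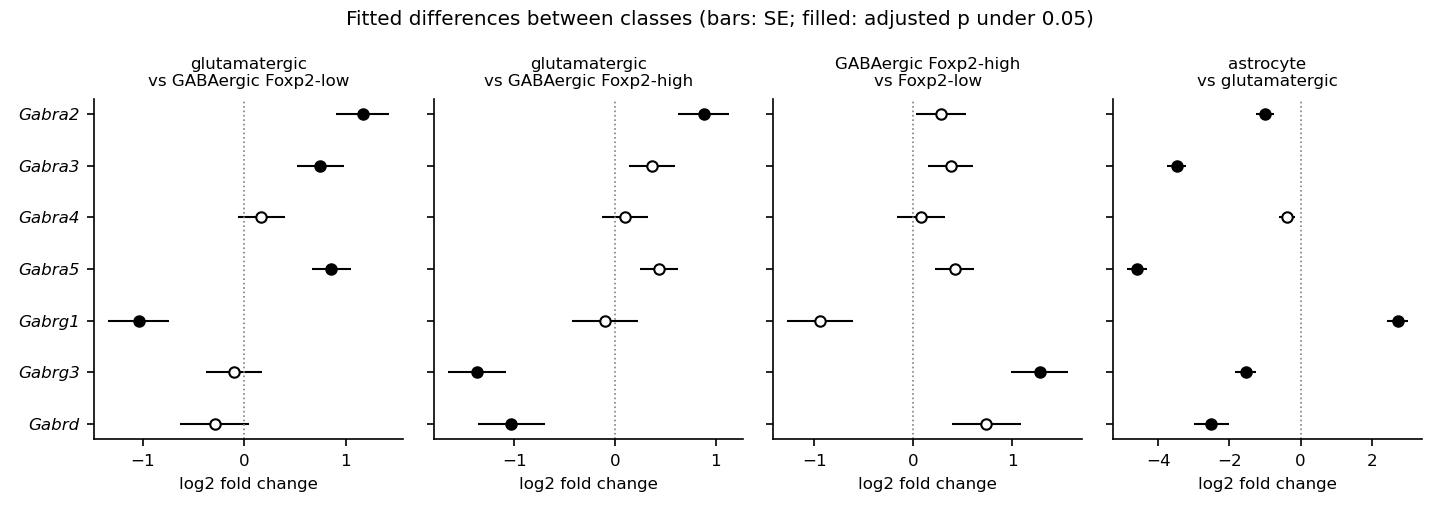
Fitted log2 fold change of each gene (horizontal axis, first-named class over second) in 4 comparisons of classes, with bars of 1 SE and filled points where the edgeR adjusted p was under 0.05. *Gabra2*, *Gabra3* and *Gabra5* lie to the right of 0 in both comparisons of glutamatergic with GABAergic nuclei, and *Gabrg1* alone lies to the right in astrocytes, at 2.73.

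Between the GABAergic classes, *Gabrg3* was 2.43-fold higher in Foxp2-high than in Foxp2-low nuclei (log2 fold change 1.28, SE 0.29, adjusted p = 0.00787), and it was the 1 gene of 7 called, where 9.10% of all genes were. Its difference was alike in each library, at 1.23 in library 2 and 1.27 in library 3, and it was called in every alternative within libraries 2 and 3. *Gabrg1* was lower by a fitted log2 fold change of -0.94 (SE 0.33) with an adjusted p of 0.0926. It was called with the library as a block (adjusted p = 0.0153), without the low-count filter (adjusted p = 0.00501) and without the deepest 5% of nuclei (adjusted p = 0.0264). *Gabrd* had 0.74 and was not called (adjusted p = 0.244).

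The level of *Gabrg3* was also read along the count of *Foxp2* in GABAergic nuclei, a grouping made after the data were seen. With 0 UMIs of *Foxp2* it was at 980 CPM in library 2 and 1190 in library 3, with 1 to 2 UMIs at 1790 and 1140, with 3 to 9 UMIs at 2440 and 2400, and with 10 or more at 2380 and 2960. The group with 1 to 2 UMIs held 18 and 51 nuclei and differed between libraries. From 3 UMIs on, both libraries were at 2380 CPM or more. *Gabrg1* was at 40.4 and 43.9 CPM in nuclei without *Foxp2* and at 13.5 and 19.5 CPM with 10 or more UMIs, and in between its libraries differed, with 15.2 and 49.2 CPM at 3 to 9 UMIs. Depth differed between the groups. Its medians were 7623 and 7599 UMIs without *Foxp2* and 3788 and 6261 at 1 to 2 UMIs. They were 5346 and 5013.5 at 3 to 9 and 9351.5 and 7834 at 10 or more.

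**Figure D4:**
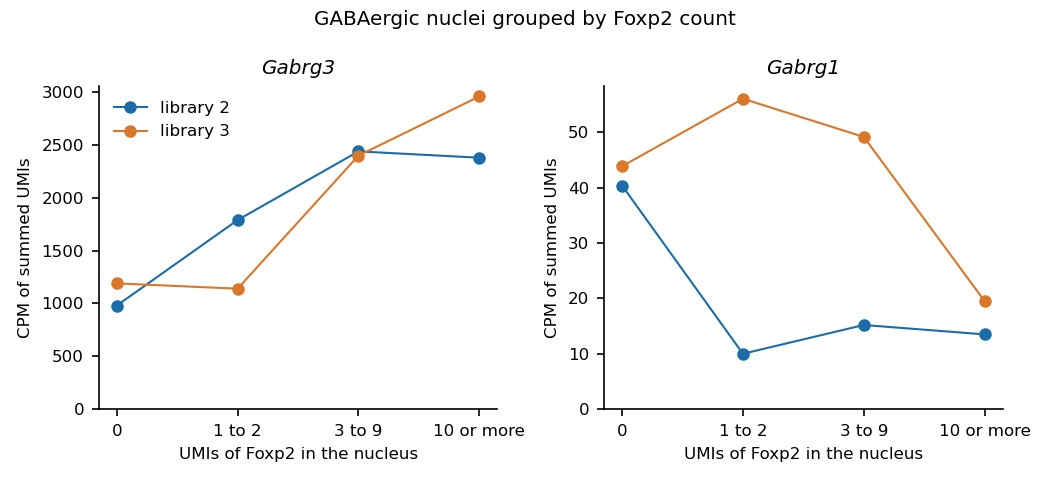
*Gabrg3* (left) and *Gabrg1* (right) in GABAergic nuclei grouped by their UMIs of *Foxp2* (horizontal axis), in CPM of summed UMIs (vertical axis, from 0), with 1 line per library. *Gabrg3* is at 980 and 1190 CPM without *Foxp2* and at 2380 and 2960 CPM with 10 or more UMIs.

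Astrocytes differed from glutamatergic nuclei in 6 of the 7 genes, in a comparison where 53.6% of all genes were called. *Gabrg1* was 6.66-fold higher in astrocytes (log2 fold change 2.73, SE 0.29, adjusted p = 3.65e-07). *Gabra5* was lower by a log2 fold change of -4.60 (SE 0.28), *Gabra3* by -3.48 (SE 0.27), *Gabrd* by -2.51 (SE 0.49), *Gabrg3* by -1.54 (SE 0.29) and *Gabra2* by -0.99 (SE 0.25), with adjusted p-values from 7.55e-10 to 0.00334. *Gabra4* had -0.39 (SE 0.23, adjusted p = 0.176), and was called with the library as a block (adjusted p = 0.00685). The 7 genes had a median of -1.54, against -0.01 for all genes. The astrocyte values of *Gabra5*, *Gabra3* and *Gabrd* are near the oligodendrocyte level.

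Adding library 1, with 42 glutamatergic nuclei and no other class of 10 or more, to the fit that estimates the spread over all classes ended all calls of the 7 genes between neuronal classes and those of *Gabra2* and *Gabrg3* in astrocytes. In library 1 glutamatergic nuclei had *Gabra2* at 441 CPM, *Gabrg3* at 595 CPM, *Gabrg1* at 56.3 CPM and *Gabrd* at 35.5 CPM. The first 2 are below and the last 2 above the range of glutamatergic nuclei in libraries 2 and 3. Over all 819 nuclei of library 1, the same genes were at 447, 679, 43.1 and 25.5 CPM in this order. Of these nuclei 56 fell in any class. The part of library 1 in these differences was not tested.

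Within glutamatergic nuclei, those with at least 2 UMIs of *Rspo2* (81 and 25), a gene enriched in the basal amygdala, were set beside those with *Rorb* (45 and 23), enriched in the lateral amygdala, each lacking the other marker. *Gabra5* was at 54.7 and 26 CPM in *Rspo2* and at 87.1 and 73.5 CPM in *Rorb* nuclei. *Gabrg3* was at 832 and 1010 CPM against 1270 and 1430 CPM, and *Gabra3* at 182 and 266 CPM against 163 and 122 CPM. *Gabrg1* was at 26.6 and 22.3 CPM against 15.9 and 6.12 CPM, the last from 2 UMIs. In each of these the libraries of a group did not overlap with the other group. How many of all genes do so was not counted. The groups overlapped for *Gabra2*, at 608 and 656 CPM against 484 and 768 CPM. They also overlapped for *Gabra4*, at 139 and 123 CPM against 105 and 187 CPM, and for *Gabrd*, at 3.45 and 1.86 CPM against 6.13 and 0 CPM. None of the 7 was called by edgeR, where 2.84% of 7916 genes were, and 2 had an unadjusted p under 0.05. The log2 fold changes were -0.88 for *Gabra5* (adjusted p = 0.148), -0.56 for *Gabrg3* (adjusted p = 0.526) and 0.61 for *Gabra3* (adjusted p = 0.441). For *Gabrg1* it was 0.97 (adjusted p = 0.642). DESeq2 also called 0, and with the library as a block *Gabrg3* was called (-0.57, adjusted p = 0.00851).

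Within Foxp2-high nuclei, *Rarb*, a retinoic acid receptor of striatal neurons, was present with at least 2 UMIs in 59 and 160 nuclei and absent from 73 and 151. *Gabra2* was higher in the *Rarb*-positive nuclei, at 493 and 501 CPM against 268 and 352 CPM, and *Gabra5* was lower, at 32.9 and 39.6 CPM against 79.4 and 66.8 CPM. *Gabrg3* overlapped, at 2310 and 2830 CPM against 2550 and 2820 CPM, and every nucleus of both groups held it. Neither edgeR nor DESeq2 called any of the 7, where edgeR called 1.39% of genes, and 2 had an unadjusted p under 0.05. The log2 fold change of *Gabra5* was -0.93 (adjusted p = 0.147) and that of *Gabra2* was 0.67 (adjusted p = 0.469). With the library as a block *Gabra2* was called (0.69, adjusted p = 0.0357).

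**Figure D5:**
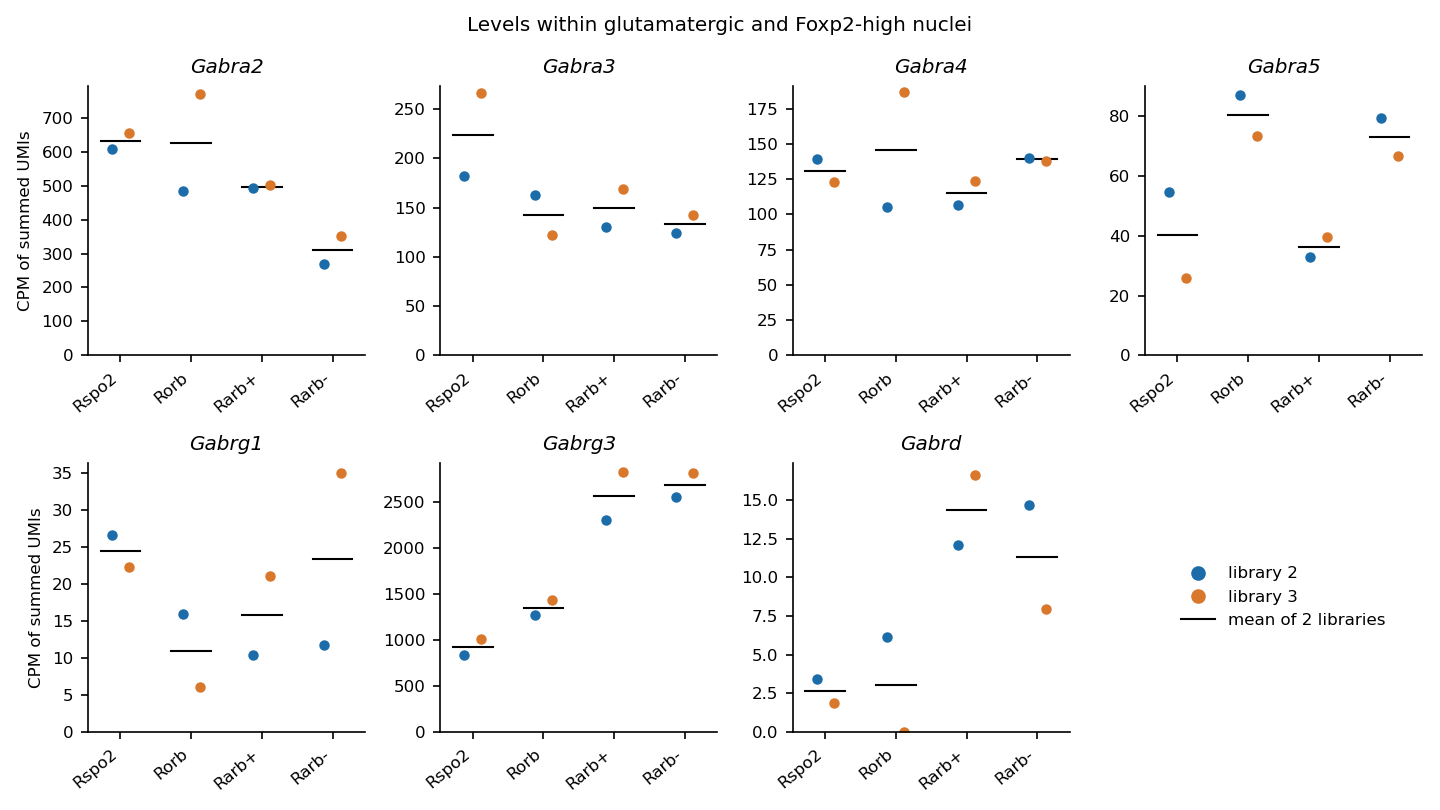
Level of each gene in glutamatergic nuclei with *Rspo2* or *Rorb* and in Foxp2-high nuclei with and without *Rarb* (CPM of summed UMIs, vertical axis from 0), with 1 point per library and a line at the mean of libraries 2 and 3. *Gabra5* is lower in *Rspo2* than in *Rorb* nuclei and lower with than without *Rarb* in both libraries, and *Gabrg3* is at 2310 CPM or more with and without *Rarb*.

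Foxp2-low nuclei were read by interneuron markers, in groups that can share nuclei. Among those with *Sst*, 25 and 40 nuclei, *Gabrg1* was at 78.9 and 54.4 CPM and *Gabra5* at 3.29 and 23.3 CPM. *Gabrd* had 0 UMIs in all of them, which allows shares of up to 12% and 7.5% and so does not set them apart from the other groups. Nuclei with *Reln* (54 and 79) had *Gabrg1* at 17.1 and 25.3 CPM and *Gabra5* at 43.7 and 39.1 CPM, and they held *Gabrd* in 5.56% and 6.33%. Those with *Tshz2* (53 and 78) had *Gabrg1* at 62.3 and 66.8 CPM. *Gabra4* was at 43.9 and 72.3 CPM in nuclei with *Cnr1* (39 and 48) and at 115 and 135 CPM in those with *Tshz2*. These values rest on few nuclei and were not tested.

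The other genes of GABA signalling were read from fixed lists. *Gabrb1*, which encodes a β subunit, was at 1190 and 1460 CPM in glutamatergic, 763 and 803 in Foxp2-high, 944 and 1180 in Foxp2-low and 4130 and 5310 in astrocyte nuclei. It was higher in astrocytes than in glutamatergic nuclei (log2 fold change 1.72, adjusted p = 0.000191) and was not called between neuronal classes. With the library as a block it was called in all 3 of these (adjusted p = 0.025 and 0.000148 for glutamatergic over Foxp2-low and Foxp2-high, and 0.0417 for Foxp2-high below Foxp2-low). *Gabrr2*, which encodes a ρ subunit, had 10 and 15 UMIs in astrocytes against 3 and 6 in glutamatergic nuclei (2.34, adjusted p = 0.014). It was at 13.2 to 20.9 CPM in oligodendrocytes, its highest class, and 3.67 to 6.26 CPM in astrocytes. Oligodendrocyte precursors had 0 CPM, which allows up to 9.66 and 10.6 CPM, and microglia had 0 CPM. Oligodendrocytes are thus no background for *Gabrr2*, and whether its astrocyte value exceeds a background was not tested. On chromosome 5, *Gabrb1* and *Gabrg1* were both higher in astrocytes while *Gabra2* between them was lower. *Gabra4*, also between them, was not called by edgeR (-0.39, adjusted p = 0.176).

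Of 20 genes for assembly and anchoring, all were tested, and in glutamatergic nuclei 1 was higher and 2 were lower than in Foxp2-low, and 0 higher and 3 lower than in Foxp2-high nuclei, while 17.0% and 13.1% of all genes were called. *Mdga1*, which encodes an inhibitor of neuroligin at inhibitory synapses, was at 75.6 and 62.6 CPM in Foxp2-high, 23.2 and 29.6 in glutamatergic and 5.64 and 5.6 in Foxp2-low nuclei, and was higher in Foxp2-high than in Foxp2-low nuclei by a log2 fold change of 3.62 (adjusted p = 4.29e-07). *Plcl1*, which encodes a protein that binds the receptor and its trafficking partners, was at 483 and 552 CPM in Foxp2-high and 163 and 180 in Foxp2-low nuclei (1.62, adjusted p = 0.000361). These were the 2 of 20 called there, where 9.10% of all genes were. With the library as a block 5 were called there, and 6 in place of 3 in glutamatergic against Foxp2-low nuclei. Of all 13052 genes the block called 2003 and 3202 in the same order. In astrocytes 5 were higher and 6 lower than in glutamatergic nuclei, with 53.6% of all genes called. In all 4 comparisons the share of the list was near that of all genes. The list medians lay between -0.11 and 0.03 in these 4 comparisons, beside -0.02 to 0.04 for all genes.

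Genes of GABA loading, uptake and breakdown were read as well. *Abat*, which breaks GABA down, was at 174 and 155 CPM in Foxp2-low, 99.8 and 101 in Foxp2-high, 49.7 and 49.5 in glutamatergic and 183 and 171 in astrocyte nuclei. It was lower in Foxp2-high than in Foxp2-low nuclei (-0.68, adjusted p = 0.0259) and higher in astrocytes than in glutamatergic nuclei (1.73, adjusted p = 5.03e-07). *Slc6a11*, a GABA transporter of astrocytes, was at 380 and 372 CPM in astrocytes and 14.9 and 18.3 CPM in glutamatergic nuclei (4.43, adjusted p = 1.44e-10). *Slc32a1*, the vesicular GABA transporter, was at 20.2 and 14.4 CPM in Foxp2-low and 17.3 and 10.7 CPM in Foxp2-high nuclei and was not called between them (adjusted p = 0.681). *Aldh5a1*, which acts after *Abat*, was lower in glutamatergic than in Foxp2-low nuclei (-0.95, adjusted p = 0.0322). The glutamatergic class was required to have 0 UMIs of *Gad1* and *Gad2*.

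Of 6 GABA-B receptor genes, *Gabbr2* was at 202 and 217 CPM in Foxp2-high and 503 and 457 CPM in Foxp2-low nuclei (-1.15, adjusted p = 0.00222). *Kctd8*, which encodes an auxiliary subunit, was lower there too (-1.76, adjusted p = 2.67e-05), and the other 4 were not called, where 9.10% of all genes were.

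Chloride handling had 4 genes tested, and 2, *Clcn2* and *Car7*, were higher in glutamatergic nuclei than in either GABAergic class, with 0 lower, where 17.0% and 13.1% of all genes were called. *Slc12a5*, the chloride exporter KCC2, was at 98.7 and 81 CPM in glutamatergic and 17.5 and 9.06 CPM in astrocyte nuclei (-2.99, adjusted p = 1.29e-08). Of 5 genes for endogenous modulators 2 were tested. *Dbi*, the precursor of a peptide that binds the benzodiazepine site, was at 44.4 and 25.5 CPM in astrocytes and 1.31 and 0.946 CPM in glutamatergic nuclei (4.70, adjusted p = 2.44e-08). *Srd5a1*, an enzyme of neurosteroid synthesis, was at 11.8 and 9.14 CPM in glutamatergic and 4.7 and 5.25 CPM in Foxp2-low nuclei (1.14, adjusted p = 0.0449). Of the modulator genes 0 were tested between *Rspo2* and *Rorb* nuclei or by *Rarb*. The other lists had no called gene in either comparison. With the library as a block 1 gene of assembly and 1 of chloride handling were called between *Rspo2* and *Rorb* nuclei. The block called 393 of all 7916 genes there.

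Over 14 sums, 7 classes in 2 libraries, the profiles of the members were compared by Pearson's r of log2(CPM + 1), as a description of points that share libraries and differ in depth. *Gabra3* and *Gabra5* were the most alike pair (r = 0.92), *Gabra3* and *Gabrg3* followed (0.85), and *Gabra5* and *Gabrg1* were the least alike (-0.10). *Gabrg1* was closest to *Gabra4* among the members (0.74). Other genes that reached 50 CPM were then ranked, leaving out the genes that set the classes. The nearest was *Kalrn* for *Gabra2* (0.947), *B230334C09Rik* for *Gabra3* (0.986) and *Smarcd3* for *Gabra4* (0.964). It was *Add2* for *Gabra5* (0.970), *Slc1a4* for *Gabrg1* (0.966), *Sez6* for *Gabrg3* (0.960) and *Tacr1* for *Gabrd* (0.945). The next were *Lncpint* and *Negr1* for *Gabra2*, *Syn3* and *Rnf165* for *Gabra3*, *Tsc22d1* and *Eda* for *Gabra4*, *Ahi1* and *Hspa12a* for *Gabra5*, *4930570B17Rik* and *Psd2* for *Gabrg1*, *Usp29* and *Patj* for *Gabrg3*, and *Chchd6* and *Tasp1* for *Gabrd*.

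*Gabra2* and *Gabrg3*, the members found in most nuclei, were also read together in single nuclei. After thinning they were both found in 128 of 482 glutamatergic nuclei of library 2, where their separate shares give 128, and in 55 of 206 of library 3, where they give 54. In Foxp2-high nuclei they were both found in 49 of 153 (48.2 from the shares) and 113 of 351 (115 from the shares). In astrocytes they were both found in 22 of 453 nuclei, against 31.2 from the shares, and 79 of 1156, against 91.2. No test was made on these counts.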

How the data were processed

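The authors demultiplexed and aligned the reads with Cell Ranger 7.0.1 to the 10x mouse reference on mm10 and deposited a matrix of unnormalized UMI counts for each library, before their own filters. Whether introns were counted is not given in the sources used here. Barcodes needed over 200 genes, with mitochondrial UMIs under 20% and hemoglobin UMIs under 0.2%, which left 819, 3772 and 4512 nuclei in libraries 1, 2 and 3. The ribosomal filter and the doublet caller of the methods were not applied. The exclusive transmitter genes, for neurons only, and an alternative without the deepest 5% of nuclei of each class bear on doublets. Astrocytes were screened for transmitter UMIs in the stricter classes alone. In libraries 2 and 3, 1666 and 2320 nuclei fell in a class, and 2 nuclei of library 2 in more than 1.

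Oligodendrocytes had at least 0.6% of UMIs on myelin genes, precursors at least 2 UMIs of *Pdgfra* and microglia at least 3 of *Csf1r*, *P2ry12* and *Cx3cr1*, each without transmitter UMIs. UMIs were summed per class and library for classes with at least 10 nuclei, and tested with edgeR 4.0.16 in R 4.3.3 (quasi-likelihood, TMM, filterByExpr, Benjamini-Hochberg over all genes, threshold 0.05), in 1 fit for the 4 classes and 1 for the subgroups. DESeq2 1.42.0 was an alternative. The edgeR steps were tested on simulated counts. Classes of a library share its brains, so the library pairs them, and the deviations of classes of the same library correlated at 0.15 to 0.24. The fit with the library as a block is given where it changed a call. SE is the log2 fold change divided by the root of F. Python 3.11.15 was used for all else. Shares have exact Clopper-Pearson intervals, and a count of 0 allows up to 3 counts. Both cover counting error only. Thinning left out 79 and 35 astrocytes, 17 and 10 oligodendrocytes, and at most 3 nuclei of each neuronal class per library, all under 1000 UMIs.

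The genes, lists, classes and tests were chosen with earlier results of these data known. All 7 members were tested in each comparison. A member not named in one was not called there by edgeR, with or without the library as a block. For each member the 3 genes of most similar profile are named, and for each list at most 4 called genes. Gene positions come from GENCODE vM21, start-site windows from RefSeq (GRCm38.p6), which had an entry for 6 of the 7 members by symbol. The bases after the start of *Gabrg3* and of 1 of the *Gabra3* starts were in no GENCODE transcript of the gene. Other α and γ genes were not analysed here, and some genes of the lists are not reported here.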

Additional observations from a re-analysis of the deposited data

Results flagged for a closer look

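Library 1 was left out of the comparisons because only its glutamatergic class had at least 10 nuclei. Its 42 glutamatergic nuclei held 337618 UMIs, so that 3 counts amount to 8.89 CPM, and all 7 genes were above this limit. *Gabra2* was at 441 CPM, *Gabra3* at 121 CPM, *Gabra4* at 107 CPM, *Gabra5* at 56.3 CPM, *Gabrg1* at 56.3 CPM, *Gabrg3* at 595 CPM and *Gabrd* at 35.5 CPM. The α genes and *Gabrg3* were below both other libraries, and *Gabrg1* (22.7 and 15.8 CPM in libraries 2 and 3) and *Gabrd* (6.19 and 5.67 CPM) were above both. *Gabrd* was counted with 12 UMIs there. Over all nuclei of library 1 it was at 25.5 CPM, in 21.4% of 819 nuclei, against 6.37 and 6.52 CPM in libraries 2 and 3. *Gabra2*, *Gabrg1* and *Gabrg3* were at 447, 43.1 and 679 CPM over all nuclei of library 1. The difference between libraries was not tested.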

How the results depend on the processing

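The number of the 7 genes called changed with library 1, depth, the block and the strictness of the classes. With library 1 added it was 0 in each of the 3 comparisons of neuronal classes (4, 3 and 1 without it) and 4 in astrocytes against glutamatergic nuclei (6 without it). Thinning left 1 call in glutamatergic against Foxp2-low and 1 against Foxp2-high nuclei, and stricter classes left 2 in the former. With the library as a block 5 were called in glutamatergic against Foxp2-high nuclei and 2 in Foxp2-high against Foxp2-low. In *Rspo2* against *Rorb* nuclei 1 was called, and 1 by *Rarb*. Of all genes the block called 2538 and 2003 of 13052 between these classes, and 393 and 273 of 7916 between the subgroups. The block changed the calls of 6 values of the members in all, each towards a call, among 42. In Foxp2-high against Foxp2-low nuclei 2 were also called without the low-count filter and without the deepest nuclei. Other size factors and no quality filter changed no call. After thinning *Gabrd* was not tested between classes, nor were *Gabra4*, *Gabra5*, *Gabrg1* and *Gabrd* between subgroups. Log2 fold changes from 1 library alone, taken from CPM, were also set beside the fitted values. In library 3 alone 15 and in library 2 alone 22 differed by the standard deviation of the libraries or more. Uncalled values with another sign are included. That deviation is small where the libraries are alike, so these counts do not measure dependence on a library. No test was made, and values called between classes kept their sign. *Gabrg1* ranged from -1.53 to -0.78 in glutamatergic against Foxp2-low nuclei and from 2.25 to 3.39 in astrocytes, and, not called, from -0.73 to 0.71 in glutamatergic against Foxp2-high nuclei.

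Signs changed in values that were not called in the fit reported. With library 1 added, *Gabra4* had log2 fold changes of -0.06 and *Gabrd* of 0.26 in glutamatergic against Foxp2-low nuclei, and *Gabra4* had -0.13 and *Gabrg1* 0.13 against Foxp2-high. *Gabrg1* there had 0.05 with the block and 0.04 without the deepest nuclei. Thinning gave *Gabra4* -0.02 and *Gabra5* -0.21 in Foxp2-high against Foxp2-low nuclei. In *Rspo2* against *Rorb* nuclei, *Gabra2*, with -0.00, had 0.05 with the block, 0.01 with other size factors, 0.07 without the filter, 0.22 after thinning, 0.10 without the deepest nuclei, 0.50 with stricter classes and 0.00 with DESeq2. *Gabra3* had -0.19 after thinning and -0.03 with stricter classes, and *Gabra4* 0.39. By *Rarb*, *Gabrg3* had 0.09 with stricter classes. The causes were not tested.

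Over all genes the calls also moved by over 1.5 times. In glutamatergic against Foxp2-low nuclei 2223 were called, 747 after thinning, where 6089 genes were tested, and 663 with library 1. Against Foxp2-high nuclei 1713 were called, 638 after thinning and 519 with library 1. Between the GABAergic classes 1188 were called, 2003 with the block, 594 after thinning, 683 with stricter classes and 213 with library 1. In astrocytes 7001 were called and 3214 after thinning. Between *Rspo2* and *Rorb* 225 were called, 393 with the block, 384 without the filter, 51 after thinning, 138 with stricter classes and 150 by DESeq2 (the last at 1.5 times). By *Rarb* 110 were called, 273 with the block, 232 without the filter and 178 without the deepest nuclei.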
